A study of Mus musculus with 8 samples.

Results

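A CUT&RUN library for H3K27me3, histone H3 trimethylated on lysine 27, was set beside an IgG library gene by gene, both from female mouse primordial germ cells (PGCs) at E12.5. A gene of chromosomes 1 to 19 was included when both libraries together gave it at least 20 reads, and 16526 of the 20368 autosomal genes met this (21352 genes were in the files in all). Of the 3842 autosomal genes left out, 1278 had no read in either library. The level of a gene was its reads per 1000000 reads on these chromosomes (RPM). All included genes were ranked by the log2 ratio of the H3K27me3 level to the IgG level, after a pseudocount of 1 RPM had been added to each.

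Every library came from PGCs sorted out of embryos that had been pooled by sex, of the cross B6 x Cast. Females at E11.5, E12.5 and E13.5 were Xist KO/+:Oct4-eGFP+/-, so all carried 1 Xist knockout allele and the Oct4-eGFP transgene, a fluorescent reporter of the Pou5f1 gene that is active in germ cells. The male IgG library at E11.5 was Xist KO/Y:Oct4-eGFP+/-. Each of the 5 groups, namely female H3K27me3 at 2 ages (E12.5 and E11.5), female IgG at E12.5 and E13.5, and male IgG at E11.5, held 1 library, and 3 further samples that the labels name as second H3K27me3 replicates were not analysed here. With 1 library a side the variation between replicates is unknown and no test was made. The 95% intervals given below are exact counting intervals that cover counting error only.

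On chromosomes 1 to 19 the H3K27me3 libraries held 5020062 reads (E12.5) and 2356356 (E11.5), and the IgG libraries held 1357583 (male, E11.5), 1515532 (E12.5) and 5705401 (E13.5). In the E12.5 pair 1 read was worth 0.199 RPM in H3K27me3 and 0.66 RPM in IgG, so the shallower IgG library limited the precision of most ratios. Included genes had a median of 99 H3K27me3 reads and 40 IgG reads, and 23 of them had no IgG read. The reads are those assigned to a parental allele, and genes without a variant between the strains could not be counted.

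H3K27me3 is laid down by Polycomb repressive complex 2, whose catalytic subunit is Ezh2 or Ezh1, and it is read by Polycomb repressive complex 1. In most tissues it covers silent genes of development, above all those for transcription factors and signals of lineages that the cell did not take, and it is scarce over active housekeeping genes. Its targets usually have promoters rich in CpG. PGCs at this stage have reached the gonad, have lost most of their DNA methylation and, in females, are about to enter meiosis, and H3K27me3 is one of the marks that remain in them. A library of this kind measures DNA released near the mark, so a level over a gene says nothing direct about its RNA.

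Promoter sequences of genes from both ends of the ranking show the contrast in sequence that the later paragraphs give in numbers. They are the 250 bases before a transcription start in a RefSeq promoter table of GRCm38.p6, the assembly named mm10. Where a gene had several starts, the one with the highest CpG content, as defined below, was taken. The bases are printed 5′ to 3′ on the gene's strand with each CG in capitals. Hoxd3 (chr2:74711743-74711992, plus strand) and Olig2 (chr16:91225300-91225549, plus strand) code for developmental transcription factors among the 20 highest genes, and they hold 12 and 22 CG in this stretch.
Hoxd3: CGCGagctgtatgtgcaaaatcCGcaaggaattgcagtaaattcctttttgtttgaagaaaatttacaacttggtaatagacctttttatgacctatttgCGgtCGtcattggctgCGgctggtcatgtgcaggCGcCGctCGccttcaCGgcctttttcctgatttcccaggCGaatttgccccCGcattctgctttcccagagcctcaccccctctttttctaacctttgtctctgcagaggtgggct
Olig2: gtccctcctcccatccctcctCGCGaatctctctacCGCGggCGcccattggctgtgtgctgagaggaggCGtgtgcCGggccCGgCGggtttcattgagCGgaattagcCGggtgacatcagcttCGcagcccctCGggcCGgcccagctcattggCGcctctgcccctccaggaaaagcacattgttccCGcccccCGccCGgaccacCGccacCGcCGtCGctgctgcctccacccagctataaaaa

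Olfr94 (chr17:37197967-37198216, minus strand), an odorant receptor gene with a log2 ratio as high as theirs, holds 2 CG.
Olfr94: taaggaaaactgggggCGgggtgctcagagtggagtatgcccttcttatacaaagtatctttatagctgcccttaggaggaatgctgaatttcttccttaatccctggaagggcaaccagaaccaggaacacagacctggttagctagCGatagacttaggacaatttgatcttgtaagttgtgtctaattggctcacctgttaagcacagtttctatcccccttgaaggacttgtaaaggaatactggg

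Mrps7 (chr11:115603890-115604139, plus strand), for a protein of the mitochondrial ribosome, and Tuba1b (chr15:98934391-98934640, minus strand), for an alpha-tubulin of every cell, stand among the 20 lowest genes and hold 31 and 35 CG.
Mrps7: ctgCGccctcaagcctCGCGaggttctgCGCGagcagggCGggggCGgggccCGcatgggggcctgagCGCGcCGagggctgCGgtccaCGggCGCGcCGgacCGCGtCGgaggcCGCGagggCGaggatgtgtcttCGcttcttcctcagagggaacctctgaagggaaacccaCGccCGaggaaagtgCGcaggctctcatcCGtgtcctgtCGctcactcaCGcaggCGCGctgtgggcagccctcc
Tuba1b: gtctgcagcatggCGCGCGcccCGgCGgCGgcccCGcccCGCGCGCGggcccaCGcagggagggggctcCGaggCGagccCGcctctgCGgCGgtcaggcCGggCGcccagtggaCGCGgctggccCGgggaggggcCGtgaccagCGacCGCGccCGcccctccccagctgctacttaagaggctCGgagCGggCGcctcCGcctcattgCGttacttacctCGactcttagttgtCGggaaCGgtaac

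Stra8 (chr6:34920698-34920947, plus strand) codes for the switch into meiosis, and Ddx4 (chr13:112652311-112652560, minus strand) for the RNA helicase that marks germ cells. Both belong to the germ line, with log2 ratios of 1.53 and -0.99, and they hold 5 and 31 CG. The Stra8 stretch lies inside the span given for the gene below, so it precedes an inner start and not the outermost one.
Stra8: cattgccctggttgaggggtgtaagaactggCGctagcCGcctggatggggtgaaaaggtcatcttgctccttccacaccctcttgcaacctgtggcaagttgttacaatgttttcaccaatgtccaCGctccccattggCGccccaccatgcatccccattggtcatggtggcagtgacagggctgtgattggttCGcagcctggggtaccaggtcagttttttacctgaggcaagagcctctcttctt
Ddx4: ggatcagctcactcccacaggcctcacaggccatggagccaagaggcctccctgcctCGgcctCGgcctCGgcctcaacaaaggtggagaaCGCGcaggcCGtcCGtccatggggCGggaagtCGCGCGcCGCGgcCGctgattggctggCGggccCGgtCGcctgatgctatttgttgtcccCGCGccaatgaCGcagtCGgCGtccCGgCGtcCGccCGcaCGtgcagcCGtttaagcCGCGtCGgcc

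Over all included genes the log2 ratio ran from -2.49 to 4.26, with a median of -0.54 and middle values (quartiles) of -1.08 and 0.48. The values did not spread evenly around the median. The most crowded stretch, from -1.2 to -1.0, held 1847 genes, and from there a long shoulder reached to the right. Genes called higher, with a log2 ratio of 1 or more, numbered 2511 (15.2% of the included genes), and genes called lower, at -1 or less, numbered 4881 (29.5%). In a bulk library, fewer cells with the mark and less of it per cell cannot be told apart. Another 9134 genes lay between, 645 genes reached 2 and 60 reached 3, while 59 lay at -2 or below.

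**Figure D1:**
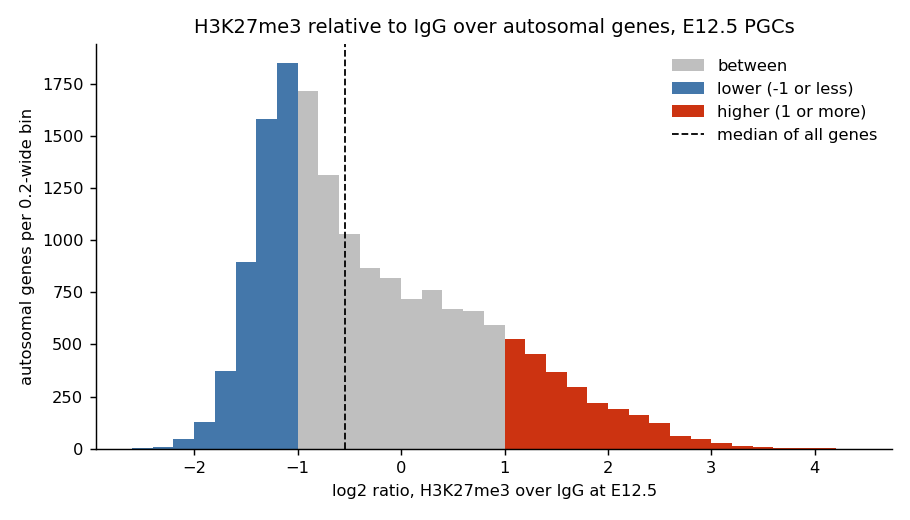
Number of autosomal genes (vertical axis) by log2 ratio of H3K27me3 to IgG at E12.5 (horizontal axis, bins 0.2 wide), with higher genes in red, lower genes in blue and the median of all genes at -0.54 as a dashed line. The peak of the counts lies at the border of the lower genes, between -1.2 and -1.0, and the 2511 higher genes form a tail to the right without a peak of its own.

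The call of a gene as lower depends on the scale, because every level is a share of its library. The higher genes took 27% of the H3K27me3 reads against 8.84% of the IgG reads, and the lower genes took 11.9% against 29.4%. When the ratios were centred on the median gene, which moves every log2 ratio up by 0.54, 4221 genes were higher and 778 lower, so that higher genes made up 84.4% of all calls in place of 34%. Centred on the median of the housekeeping list, a scale added after seeing the data, 6569 genes were higher and 19 lower. On that scale no list had a median below 0, so every list called low below was low on the first scale and against the median of all genes, and not on this one. The medians of gene lists are therefore read below against the median of all genes.

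Per kilobase of gene length, as the files give it, the higher genes had a median level of 3.83 RPM in H3K27me3 and 1.14 in IgG, and the lower genes 0.527 and 1.39. Counting error alone left 1200 genes (7.26%) whose whole interval of the fold lay above 2 and 1271 genes (7.69%) whose whole interval lay below 0.5. Of the higher genes, 320 had at most 3 IgG reads. At the threshold of 1, Mill1, Zbed3 and C1ql3 lay just inside (131, 257 and 78 H3K27me3 reads against 19, 38 and 11 in IgG), and Nynrin, AI593442 and Olfr954 just outside (270, 58 and 58 reads against 40, 8 and 8).

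**Figure D2:**
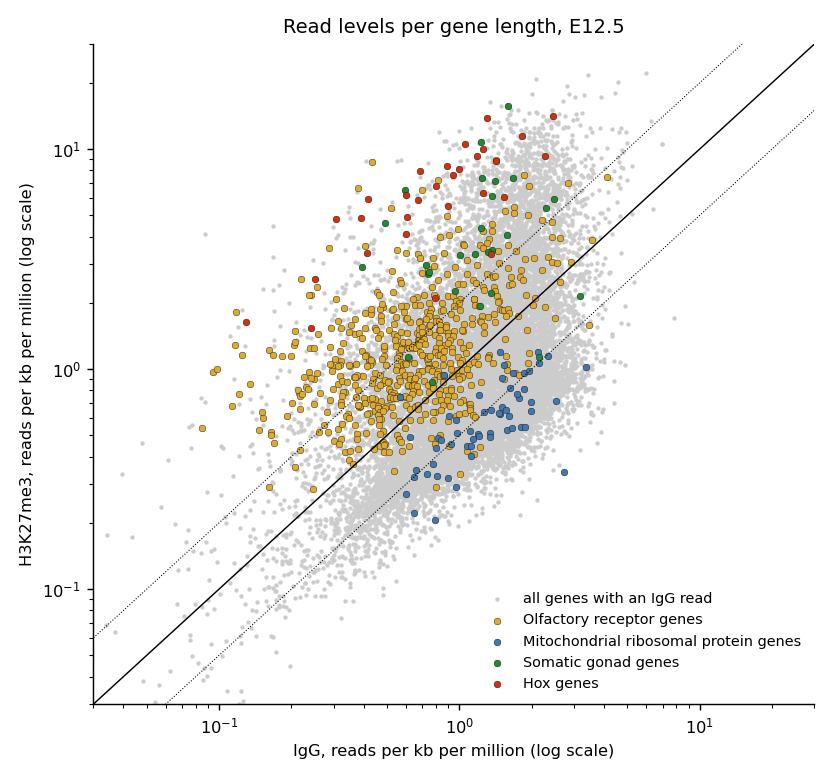
Level of each gene in RPM per kilobase in IgG (horizontal, log scale) and in H3K27me3 (vertical, log scale) at E12.5, with equal levels on the solid line and 2-fold differences on the dotted lines. Hox genes and somatic gonad genes lie above the upper line for the most part. Mitochondrial ribosomal protein genes lie around and below the lower line, and olfactory receptor genes spread between at low IgG levels. Genes without an IgG read, among them 3 Hox genes, are not drawn. The calls of higher genes (32 of 32 Hox and 21 of 27 somatic gonad genes) include the pseudocount, and the lines do not.

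Many of the 20 highest genes code for transcription factors of the embryo's patterning. Hoxd3, which helps set position along the body axis (chr2:74711993-74748271), had a level of 175 RPM in H3K27me3 and 11.2 in IgG at E12.5, 182 and 20.6 in the E11.5 pair, and 13 in IgG at E13.5. Both H3K27me3 libraries stood far above all 3 IgG libraries. From 880 and 17 reads its fold was 15.6 (9.70 to 26.9), a log2 ratio of 3.85. Its interval in the files is 36.5 kb long and takes in Hoxd4, which is listed at 0 reads in both libraries, so reads of the neighbouring gene cannot be told apart from its own.

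Hesx1, a homeobox regulator of the forebrain and pituitary, had 177 reads against 2, a log2 ratio of 3.97 and a fold of 26.7 (7.29 to 222). Pdx1, the master regulator of the pancreas (chr5:147270097-147275848), had 96.2 RPM against 7.92, with 114 and 4.42 in the E11.5 pair and 6.13 in IgG at E13.5. Its fold of 12.2 (6.89 to 23.7) rested on 483 and 12 reads. Zic4 (702 reads against 14), a zinc-finger gene of the cerebellum, Alx1 (363 against 8), a homeobox gene of the face, Tfap2b (797 against 21), a regulator of neural crest and kidney, and Hoxa10 (385 against 10) lay between 3.35 and 3.78. Alx1 stood lower in the E11.5 pair (1.9) and with IgG at E13.5 as the control (1.71). Olig2, the regulator of motor neuron and oligodendrocyte precursors whose promoter is printed above, had 142 reads against 2, and its 21.4-fold difference could lie anywhere from 5.83 to 179.

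Hoxb1 and Hoxb5 had no IgG read, so their folds are given against a floor of 3 IgG reads. Hoxb1, a hindbrain Hox gene, with 79 H3K27me3 reads was 7.95-fold above that floor, and its exact interval began at 6.32. Hoxb5, of the neck and upper trunk, with 54 reads was 5.43-fold above it, and its interval began at 4.27. Both were also higher in the E11.5 pair, with log2 ratios of 2.52 and 2.63.

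The highest gene of all was Adcyap1, for the neuropeptide PACAP, with 155 reads against 1, a log2 ratio of 4.26 and a fold of 46.8 (8.28 to 1860). Its reads were all assigned to the second allele in each of the 5 libraries, IgG included. The value therefore rests on the counts of 1 allele, and whether the other could be counted is not known. Other genes among the 20 outside the transcription factor families included Gm13288, a predicted gene (4.01, 76 reads against 0), Gfy, for a Golgi protein of olfactory neurons (3.44), Tigd4, derived from a transposon (3.41), Kcna4, a potassium channel (3.5), Nrn1, for the neuronal surface protein neuritin (3.36), and the odorant receptor genes Olfr1359, Olfr94 and Olfr656 (3.78, 3.78 and 3.43). In the E11.5 pair 18 of the 20 were higher, and the lowest E11.5 log2 ratio of the 20 was 0.28, that of Olfr656. Kcna4 stood at 1.0 in that pair and at 2.49 with IgG at E13.5 as the control, and Olfr1359 at 1.47 and 2.17. Olfr656 had 49 H3K27me3 reads and no IgG read at E12.5, yet a log2 ratio of only 0.14 when IgG at E13.5 was the control.

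Several long, deeply read genes lay close behind the 20. Tet3 (chr6:83362373-83457208), for the enzyme that oxidises 5-methylcytosine in the zygote and in neurons, had log2 ratios of 3.12 at E12.5, 3.56 in the E11.5 pair and 3.48 with IgG at E13.5 as the control. Its level was 1328 RPM in H3K27me3 and 152 in IgG at E12.5, 1361 and 115 in the E11.5 pair, and 118 in IgG at E13.5. From 6667 and 230 reads its fold was 8.75 (7.67 to 10.0), and both alleles gave log2 ratios of 3.13 and 3.11. Thbs2, for a matricellular thrombospondin, had 1907 reads against 63 (3.16) and Lgr5, for the R-spondin receptor of stem cells, 2003 against 82 (2.86). Thbs2 and Lgr5 were chosen after their values were seen.

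Of the 45 lists of genes that were drawn up by family or function, 43 had included members, and 31 of these had a median above that of all genes. The lists for developmental transcription factors stood highest. Their 8 lists (Hox, other homeobox, Pax, Forkhead, Sox, T-box, Gata and bHLH genes) had 255 included genes, of which 192 (75.3%) were higher and 9 lower, beside 15.2% and 29.5% of all genes. A gene with few IgG reads could enter only through its H3K27me3 reads, and 31 of the 255 had at most 3 IgG reads. When the reads of IgG at E13.5 decided which genes entered, 170 of these genes were included, and 120 of them (70.6%) were higher and 8 lower, beside 13.3% and 30.4% of all genes so chosen. Of the 100 highest genes in the E12.5 pair, 38 were on these lists.

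**Figure D3:**
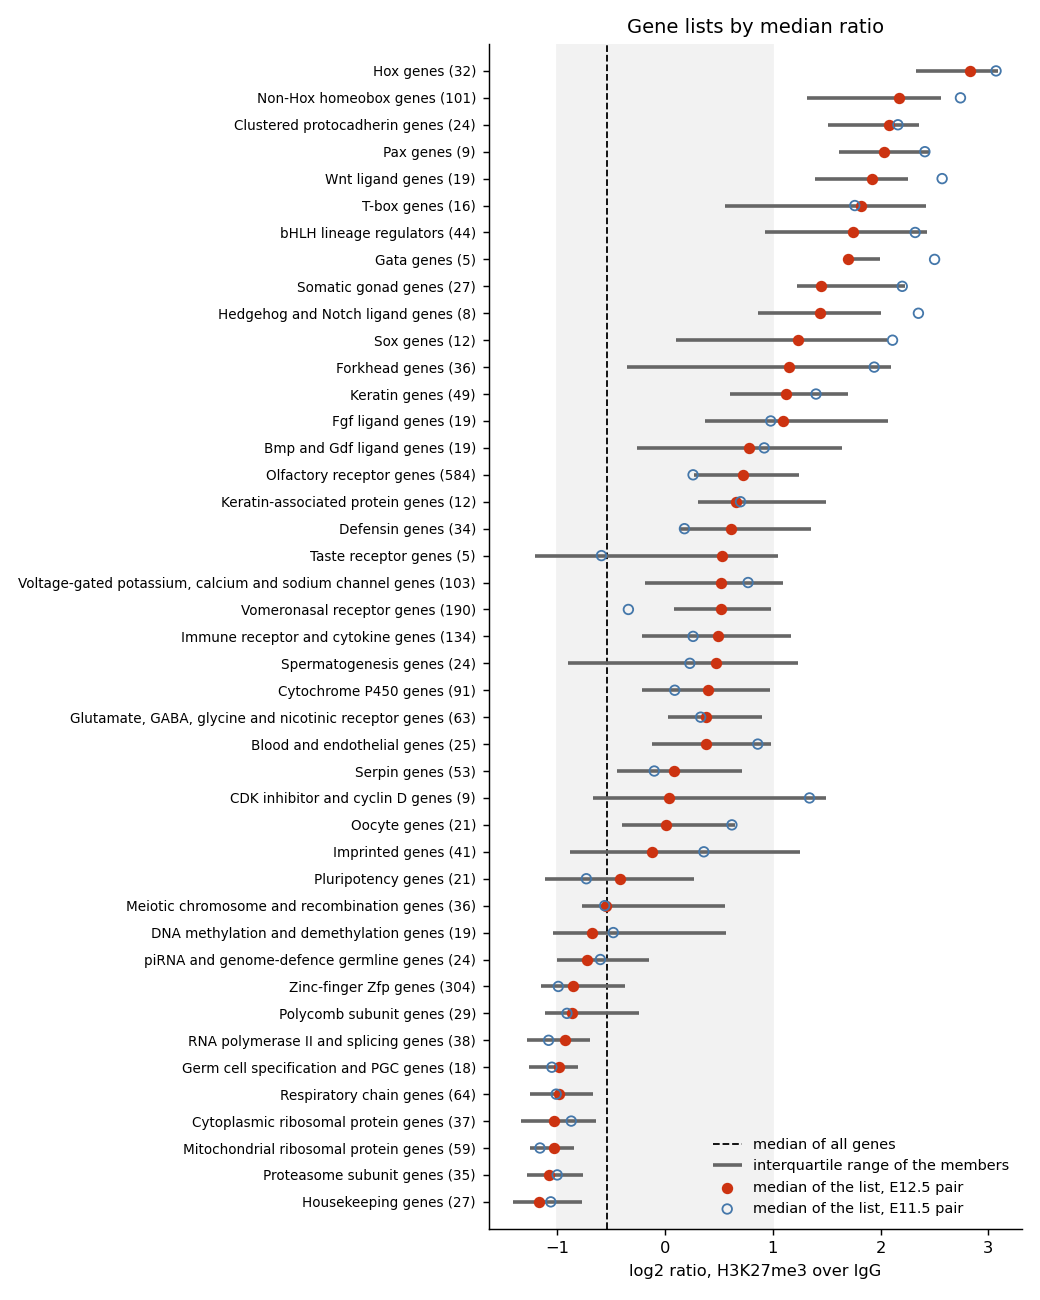
Median log2 ratio of H3K27me3 to IgG of each gene list (horizontal axis, number of included members in brackets) in the E12.5 pair, as red points with the quartiles of the members as bars, and in the E11.5 pair as open blue circles. The dashed line is the median of all genes in the E12.5 pair, -0.54, and the shaded band spans log2 ratios from -1 to 1. Hox genes stand at the top (2.83) and housekeeping genes at the bottom (-1.17).

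Hox genes code for the homeodomain proteins that give segments of the body their identity, in 4 clusters. All 32 included Hox genes of 39 were higher, with a median of 2.83, and the 7 others (Hoxa4, Hoxa5, Hoxa6, Hoxc6, Hoxc8, Hoxc9 and Hoxd4) were listed at 0 reads in both libraries. Together the 32 had 8732 H3K27me3 reads and 311 IgG reads, a fold of 8.48 (7.57 to 9.52). The lowest of them were Hoxd8 (1.13, 35 reads against 4) and Hoxb8 (1.14, 57 against 7), both thinly read. With the Hox genes that had no IgG read set against the floor of 3 IgG reads the median was 2.58. In the E11.5 pair 29 of 29 were higher, with a median of 3.07. Of the 32 genes 11 had at most 3 IgG reads and so entered through their H3K27me3 reads. When IgG at E13.5 decided which genes entered, 12 Hox genes were included, all of them higher, with a median of 3.02.

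Of 101 included homeobox genes outside the Hox clusters, 84 were higher and 1 lower, with a median of 2.17 (60 of 72 higher and 0 lower when IgG at E13.5 decided entry). The lower gene, Gbx2, which places the border of midbrain and hindbrain, had 12 reads against 9 (-1.03), and Isl2 and Msx2 were also below 0 with few reads (-0.68 and -0.49). Of 9 Pax genes, regulators of organ and neural patterning, 7 were higher, with a median of 2.03. Pax2, a gene of the kidney and inner ear (chr19:44746601-44838269), had a level of 874 RPM against 145 in IgG at E12.5, 872 and 100 in the E11.5 pair, and 94.1 in IgG at E13.5. It had 4388 reads against 220, a fold of 6.02 (5.26 to 6.93). Pax5, the regulator of B cells, and Pax8, of the thyroid, lay just under the threshold with 0.98 and 0.90.

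Of 44 included bHLH lineage regulators 31 were higher and 0 lower (median 1.74; 16 of 23 higher when IgG at E13.5 decided entry), led by Olig2 (3.66), Tcf21, a regulator of visceral mesoderm (3.05), and Neurod2, of cortical neurons (2.97). Myog and Msc, both muscle regulators, stood at -0.68 and -0.73 with 27 and 22 reads. T-box genes, which act in mesoderm, heart and limb, had 10 of 16 higher and 1 lower (median 1.82). Tbr1 (3.13), Tbx3 (2.86) and Eomes (2.60) were highest. Tbx4, a hindlimb gene, was the lower one, at -1.51 with 93 reads against 83. Its level was 18.5 RPM in H3K27me3 and 54.8 in IgG.

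Gata, Sox and forkhead genes were split. Gata4 (2.33, 2611 reads against 156), Gata6 (1.99), Gata3 (1.70) and Gata5 (1.69), regulators of heart, gut, gonad and skin, were higher. Gata2, which blood stem cells need, stood at -0.61 with 20 reads against 10 at E12.5 and at 1.34 in the E11.5 pair. Of 12 Sox genes 6 were higher, from Sox7 (1.79) to Sox17 (2.4), a regulator of endoderm and endothelium. Sox5 and Sox6, long genes of cartilage and neurons, had 3998 and 1641 reads without an excess over IgG (-0.40 and -0.19), and Sox13 was lower (-1.36).

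Among 36 forkhead genes 18 were higher and 6 lower, with a median of 1.15. Foxp4 (2.75, 3525 reads against 157), Foxb1 (2.71) and Foxa2 (2.54), the last a pioneer factor of endoderm and floor plate, stood highest. Foxm1, which drives mitotic genes, and Foxo1, a target of insulin signalling, were among the lowest at -1.49 and -1.5. Foxo1 had 208 reads against 181, a fold of 0.347 (0.283 to 0.426). The median of the list turned to -0.18 when the reads of IgG at E13.5 decided which genes entered, because 23 of the 36 then remained and 6 of them were higher.

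Genes for secreted signals of the embryo carried the mark in most families. Of 19 Wnt genes 16 were higher and 1 lower, with a median of 1.92. Wnt6 (2.71), Wnt10a (2.60) and Wnt8a (2.44) led, and Wnt2b was lower (-1.11, 54 reads against 37). The hedgehog and Notch ligands had 5 of 8 higher, with a median of 1.44. Ihh, which acts in cartilage, had 310 reads against 15 (2.53), Dll4, which acts in vessels, 474 against 25 (2.45), and Shh, the patterning signal of limb and neural tube, 289 against 23 (1.86). Jag2 was the only ligand of these 8 below 0 at E12.5 (-0.28), and it stood at 2.27 in the E11.5 pair.

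Fgf ligands had 11 of 19 higher and 1 lower (median 1.09). Fgf21, a hormone of the liver (2.79), Fgf15, a signal of the gut (2.64), and Fgf3, of the inner ear (2.60), were highest. Of 19 Bmp, Gdf and related ligands 8 were higher (42.1%) and 2 lower (10.5%), beside 15.2% and 29.5% of all genes (median 0.78). Entry decided by IgG at E13.5 left 6 of 18 higher and 2 lower, with a median of 0.25. Gdf6, a signal of joints and eye, had a level of 166 RPM against 21.1 in IgG at E12.5, 194 and 16.9 in the E11.5 pair and 13.7 in IgG at E13.5, a log2 ratio of 2.92. Bmp7, which kidney and eye need, went the other way with 288 reads against 264, a fold of 0.329 (0.278 to 0.391). Nodal, a signal of gastrulation, was lower too (-1.18, 22 reads against 17).

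Genes of the working nervous system stood nearer to the median of all genes than the regulators of its formation did. Of 63 receptors for glutamate, GABA, glycine and acetylcholine 14 were higher (22.2%) and 0 lower, with a median of 0.38. The shares over all genes were 15.2% and 29.5%. Gabbr1, for a subunit of the metabotropic GABA receptor, was highest with 973 reads against 32 (3.14), and Chrna4 and Chrnb3, nicotinic receptor subunits, followed with 1.86 and 1.66. Of 103 potassium, calcium and sodium channel genes 30 were higher and 7 lower (median 0.52). The list was named for voltage-gated channels, but it also holds channels of other kinds, among them Kcnj10 and Kcnk5. Kcnj10, a potassium channel of glia, had 1258 reads against 61 (2.61), while Kcnk5, a leak channel, had 126 against 108 (-1.47).

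Clustered protocadherins, surface molecules by which neurons tell themselves from others, had 22 of 24 included genes higher, with a median of 2.08 (14 of their 38 genes had too few reads). Pcdhb15 (3.05) and Pcdhb13 (2.85) led. Pcdhb7 and Pcdhb14 fell just short of the threshold at 0.98 each. Pcdhga3 spans many exons of its neighbours and had 2159 reads against 105 (2.62), which cannot be assigned to it alone. Of 49 keratin genes, for filaments of epithelia, 26 were higher and 1 lower (median 1.12), with Krt1 (2.60), Krt9 (2.53) and Krt18 (2.46) at the top and Krt10 at -1.20 from 13 reads against 11.

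Odorant and pheromone receptors form the largest gene families of the mouse, in clusters of similar copies whose reads may be shared or lost. Of 1085 autosomal olfactory receptor genes 584 were included, with a median of 0.72. Higher genes numbered 202 (34.6%) and lower genes 6, beside 15.2% and 29.5% of all genes. Among the 584, 92 had at most 3 IgG reads and so entered through their H3K27me3 reads. Entry decided by IgG at E13.5 gave 198 of 658 higher and 11 lower, with a median of 0.62. All genes so chosen had 13.3% higher and 30.4% lower. The median level per kilobase of the 584 genes was low in both libraries, 1.13 RPM in H3K27me3 and 0.655 in IgG, beside 0.784 and 1.19 over all genes. Vomeronasal receptor genes had 47 of 190 higher (24.7%) and 1 lower, with a median of 0.52 (47 of 204 higher when IgG at E13.5 decided entry). Vmn2r9 and Vmn2r57 were highest, with 215 reads against 11 (2.41) and 482 against 35 (2.01).

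The medians of both receptor families lay lower under the other controls. With IgG at E13.5 as the control the median of the olfactory receptor genes was 0.10 and that of the vomeronasal receptor genes -0.20, beside -0.39 for all genes. With the reads of that pair deciding which genes entered the values were -0.04, -0.34 and -0.41. In the E11.5 pair the medians were 0.26 and -0.34, beside -0.49. Hox genes had 3.10 and 3.07 under the same controls. The same H3K27me3 library enters both E12.5 comparisons, so these medians are not independent, and the difference between the IgG libraries was not tested.

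Families of epithelial defence and metabolism lay in the same range. Of 34 included genes whose symbols begin with Def, 13 were higher and 0 lower (median 0.61), most of them beta-defensins. Among these 34, 9 had at most 3 IgG reads and so entered through their H3K27me3 reads. Entry decided by IgG at E13.5 left 5 of 24 higher (median 0.43), beside 13.3% of all genes so chosen. Def6 and Def8, which the symbol brought in and which are not defensins, stood at -0.73 and -0.94. Of 134 immune receptor and cytokine genes 43 were higher and 6 lower (median 0.49; 33 of 119 higher when IgG at E13.5 decided entry). Il2ra, for the alpha chain of the interleukin-2 receptor, had 2037 reads against 104 (2.55), and Tlr2 and Tlr3, sensors of microbes, had 2.99 and 2.72. Of 91 cytochrome P450 genes 22 were higher (24.2%) and 6 lower (median 0.40), led by Cyp26c1 (2.55) and Cyp26a1 (2.46), which degrade retinoic acid. Serpins (median 0.08), keratin-associated proteins (0.66, 12 of 47 included) and taste receptors (0.53, 5 of 38 included) had 7 of 53, 4 of 12 and 2 of 5 higher. The 13.2% of serpins lies near the 15.2% of all genes, and 2 of the 5 taste receptors were lower. Among the 12 keratin-associated genes 4 had at most 3 IgG reads, and 0 of the list entered when IgG at E13.5 decided.

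The low end of the ranking was held by genes that every cell uses. Of 27 included housekeeping genes 17 (63%) were lower and 0 higher, beside 29.5% and 15.2% of all genes. Their median was -1.17. Together they had 1066 H3K27me3 reads and 714 IgG reads, a fold of 0.451 (0.410 to 0.496). Aldoa, for the glycolytic enzyme aldolase A, had a level of 1.20 RPM in H3K27me3 and 9.90 in IgG at E12.5, 0.849 and 0.737 in the E11.5 pair, and 3.33 in IgG at E13.5. Its difference at E12.5 rested on 6 reads against 15. Tuba1b had 11 against 21 (-2.22).

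Genes for the cytoplasmic ribosome had 21 of 37 lower and 0 higher (median -1.03), and those for the mitochondrial ribosome 32 of 59 lower and 0 higher (median -1.03). Rps2 and Rpl21 lay at -2.19 each and Mrps7 at -2.35. Rpl11 (0.89, 458 reads against 74) and Rpl3 (0.73, 124 against 22) were the highest ribosomal protein genes. Subunits of the respiratory chain had 31 of 64 lower and 1 higher (median -0.98), and the higher one was Cox4i2, an isoform of few tissues (1.28, 281 against 34). RNA polymerase II and splicing genes had 18 of 38 lower and 0 higher (median -0.93). Proteasome genes had 18 of 35 lower (median -1.08). Their 2 higher members, Psmb8 (2.38, 211 reads against 11) and Psmb9 (1.99, 305 against 22), code for the subunits of the immunoproteasome and lie in the major histocompatibility complex.

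Centring on the housekeeping list put the medians of the cytoplasmic ribosomal, mitochondrial ribosomal and proteasome genes above 0 (0.13, 0.14 and 0.09). Under every setting tried these lists lay below the median of all genes, apart from the cytoplasmic ribosomal genes when at least 100 reads were required (median 0.73). Zinc-finger genes named Zfp, many of which code for KRAB repressors of transposons, resembled them with 120 of 304 lower and 19 higher (median -0.85). Zfp536, a long neural gene, was an exception with 8490 reads against 673 (1.93, fold 3.81, 3.52 to 4.13).

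The 20 lowest genes had no more than 51 H3K27me3 reads each. Tor1b, for an ATPase of the nuclear envelope and endoplasmic reticulum, was the lowest with 13 reads against 29. Btbd2 was the most deeply read of them, with 51 against 76 and levels of 10.2 and 50.1 RPM at E12.5, 14 and 31.7 in the E11.5 pair, and 18.9 in IgG at E13.5. Of the 14 with enough reads in the E11.5 pair 6 were lower there, and the highest E11.5 log2 ratio among them was -0.15.

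Genes by which PGCs are made and known mostly had a lower level in H3K27me3 than in IgG on the first scale, though not when centred on the housekeeping list. Of 18 included genes of germ cell specification 8 were lower (44.4%) and 2 higher (11.1%), with a median of -0.98. Over all genes 29.5% were lower and 15.2% higher, with a median of -0.54. The median of the list was -0.49 with IgG at E13.5 as the control, near the -0.39 of all genes. Prdm1, the repressor that starts the PGC programme (chr10:44437174-44528558), had a level of 46.0 RPM in H3K27me3 and 91.7 in IgG at E12.5, 37.8 and 89.1 in the E11.5 pair, and 90.4 in IgG at E13.5. Both H3K27me3 libraries lay below all 3 IgG libraries. Ddx4 (26.1 RPM against 52.8, with 26.7 and 54.5 at E11.5 and 72.9 in IgG at E13.5) and Kit, the receptor that PGCs need to survive (44.8 against 95.0, with 50.1 and 103, and 82.4), showed the same order. Nanos3, Prdm14, Tcl1, Alpl and Cd9 had log2 ratios between -1.49 and -1.31.

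The 2 higher genes of this list were Kitl (1.24, 967 reads against 123), for the Kit ligand, which somatic cells and not PGCs supply, and Fut4 (1.03, 73 against 10), for the enzyme that makes the SSEA-1 antigen. Nanos2, which male germ cells use later, stood at 0.69 and Pou5f1 at 0.02 from 27 reads against 8. Of the 10 PGC markers fixed for the check of the cell type 9 were included, 4 of these were lower and 0 higher, and their median was -0.99. Their median was -0.5 with IgG at E13.5 as the control, beside -0.39 for all genes. The 9 markers of the somatic gonad had a median of 2.03 with 8 higher, and 7 of blood and endothelium 0.77 with 1 higher and 1 lower. These are levels of the mark and not of RNA, so they do not measure how many cells of each kind were sorted.

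Genes of the gonad's somatic cells, the supporting and steroidogenic cells around the PGCs, were mostly higher. Of 27 included genes 21 were higher and 0 lower, with a median of 1.45, and 22 of 26 were higher in the E11.5 pair. The transcription factor lists also hold 8 of these 27, all of them higher, and of the other 19 genes 13 were higher and 0 lower, with a median of 1.27. Gata4 (chr14:63198914-63271712) had a level of 520 RPM against 103 in IgG at E12.5, 589 and 103 in the E11.5 pair and 88.7 in IgG at E13.5. Lhx9 (863 reads against 44, 2.53), Wt1 (1030 against 88, 1.80) and Nr5a1 (654 against 82, 1.25), regulators without which no gonad forms, were all higher. Fst, which restrains activin in the ovary (3.16), Nr2f2, of interstitial cells (3.06), and Sox9 (2.03), which directs Sertoli cells, were higher, and Foxl2, its counterpart in granulosa cells, had 54 reads against 5 (1.45). The lowest were Cbx2 (-0.86), a Polycomb gene, Ptgds (-0.50) and Cyp11a1 (0.17).

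Of 25 blood and endothelial genes 6 were higher (24%) and 1 lower (4%), with a median of 0.38. The shares over all genes were 15.2% and 29.5%. Tal1, the first regulator of blood (589 reads against 25, 2.76), Sox17 and Gfi1 (504 against 29, 2.33) led, and Runx1, chosen after its values were seen, had 3930 reads against 465 (1.35, fold 2.55, 2.32 to 2.81). Pecam1, a surface protein of endothelium, was lower with 304 reads against 224 (-1.27). Klf1 (-0.98, 21 reads) and Hbb-bs (-0.65, 13 reads) were thinly read.

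Genes for meiosis lay on both sides of 0, as genes at large did. Of 36 included genes 5 were higher (13.9%) and 6 lower (16.7%), beside 15.2% and 29.5% of all genes, and their median of -0.55 was next to that of all genes. Stra8 (chr6:34920163-34939344) was higher, at 83.9 RPM against 28.4 in IgG at E12.5, 127 and 30.9 in the E11.5 pair and 23.3 in IgG at E13.5. Its fold was 2.96 (2.16 to 4.15) from 421 and 43 reads. Meioc, which keeps the meiotic programme running (172 reads against 14, 1.78), and Spata22, of recombination (148 against 9, 2.14), were higher as well. Spata22 stood at 0.86 in the E11.5 pair and 0.96 with IgG at E13.5. Rec8, the meiotic cohesin, Mlh3, of crossovers, and Hormad2, of the chromosome axis, were at the low end (-1.15, -1.12 and -1.19).

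Of 24 genes for piRNAs and defence against transposons 3 were higher and 6 lower (median -0.72), shares that lie near the 15.2% and 29.5% of all genes. Dnmt3l, the cofactor of de novo DNA methylation in germ cells, had 809 reads against 47 (2.34, fold 5.20, 3.87 to 7.13), and Tdrd6 and Henmt1 stood at 1.76 and 1.55. Piwil2, an Argonaute that binds piRNAs, was lower with 155 against 103 (-1.11). Oocyte genes had 4 of 21 higher and 1 lower (median 0.01), among them Zar1 (1.73) and Mos (1.71), which act in the growing and maturing egg, and Zp3, for a protein of the zona pellucida (1.19, 255 against 33; it was chosen after its values were seen). Of 24 spermatogenesis genes 8 were higher and 3 lower (median 0.47), and Izumo1, which sperm need to fuse with the egg, was highest with 389 reads against 14 (2.94).

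Pluripotency genes had 3 of 21 higher (14.3%) and 6 lower (28.6%), shares near the 15.2% and 29.5% of all genes, with a median of -0.42. The higher ones, Tbx3 (2.86), Otx2 (2.42) and Fgf4 (2.30), also belong to developmental lists, while Mycn (-1.69), Zfp42 (-1.65) and Dppa2 (-1.38) were the lowest. Imprinted genes, of which 1 parental copy is silent in the soma, had 15 of 41 higher and 7 lower (median -0.12). Sgce was highest with 1725 reads against 87 (2.56), and Igf2r lowest with 218 against 184 (-1.46). In some of them the alleles differed in the log2 ratio. Zdbf2 had 2.89 on the first allele and 0.41 on the second, Kcnq1 0.64 and 1.71, Mest 0.15 and 1.42, and Gnas 0.29 and 1.30. These 4 were chosen after their values were seen, and the differences were not tested. Wide gaps between alleles also occurred outside this list, as in the serpin gene Serpinb2 (4.39 and -0.36, from 0 and 8 IgG reads).

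Of 29 included Polycomb subunit genes 12 were lower (41.4%) and 0 higher, with a median of -0.86. The shares over all genes were 29.5% and 15.2%. In the E11.5 pair 4 of 29 were higher and 13 lower. L3mbtl2 (-1.83) was lowest and Cbx8 (0.72, 85 reads against 15) and Bmi1 (0.66) were highest. Cbx8 stood at 3.07 in the E11.5 pair. Its H3K27me3 level was 16.9 RPM at E12.5 and 32.3 at E11.5, and its IgG level 9.90 at E12.5, 2.95 at E11.5 and 3.51 at E13.5. The subunits of Polycomb repressive complex 2, chosen after their values were seen, were at -0.75 (Ezh2), -1.10 (Eed) and 0.05 (Suz12).

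Among 19 genes of DNA methylation and demethylation 4 were higher (21.1%) and 5 lower (26.3%), with a median of -0.68. These shares lie near the 15.2% and 29.5% of all genes. Besides Tet3 and Dnmt3l, Zfp57, the factor that protects imprints, was higher (1.5, 56 reads against 5). Dnmt1, the maintenance methyltransferase, had 40.2 RPM against 109 in IgG at E12.5, 32.7 and 81.0 in the E11.5 pair and 74.7 in IgG at E13.5, and Tet2 was at -1.35. Of 9 CDK inhibitor and cyclin D genes 3 were higher and 2 lower (median 0.04). Cdkn2a, the tumour suppressor that codes for Ink4a and Arf, had 568 reads against 32 (2.37), its neighbour Cdkn2b 57 against 4 (1.76) and Ccnd2 176 against 18 (1.49), while Cdkn1a, a target of p53, was lower (-1.22, 47 against 35).

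Genes with CpG-richer promoters had lower ratios over all genes. The table held promoters for 12985 of the 16101 included genes (80.6%) on the 18 autosomes that it covered, a restriction made after seeing that chromosome 18 was not covered. The genes with a promoter had a median log2 ratio of -0.58 and the 3116 without one -0.33. CpG content was the count of the motif CG in the 300 bases from 250 before to 50 after a start, divided by the count that the C and G content would give. Where a gene had several starts, the window with the highest value was taken, so genes with more starts had more windows to draw from. From the lowest to the highest decile of this measure the median log2 ratio went from 0.39 to -0.99, the share of higher genes from 25.5% to 4.16% and the share of lower genes from 6.24% to 48.2%. Spearman's rho across the genes was -0.45, a description over genes that share both libraries.

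**Figure D4:**
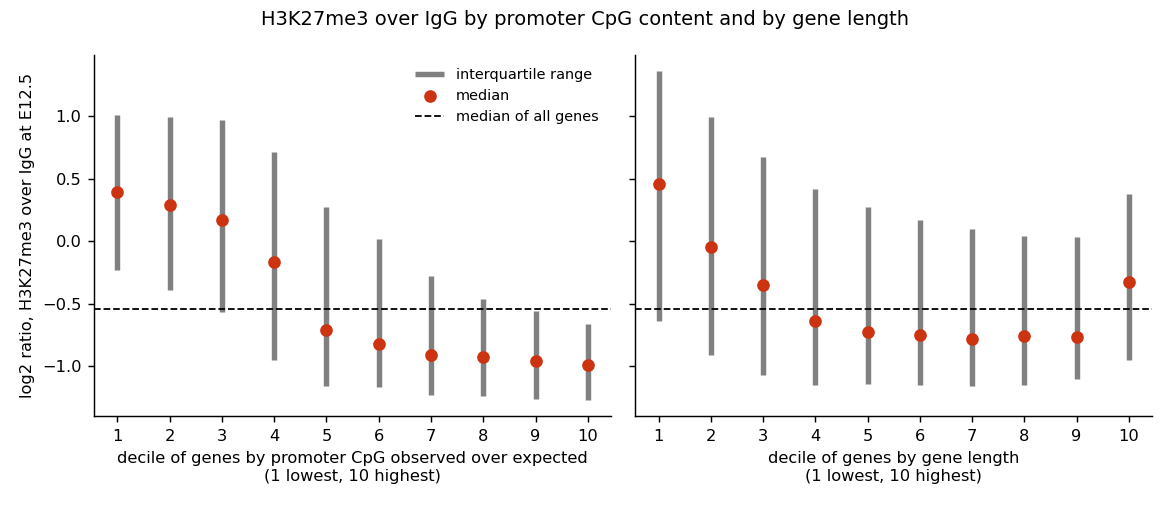
Median log2 ratio of H3K27me3 to IgG at E12.5 (red points, with quartiles as bars) in deciles of genes ordered by promoter CpG content (left) and by gene length (right). The dashed line is the median of all genes. The median goes from 0.39 to -0.99 with CpG content, and from 0.46 in the shortest decile to -0.78 in the seventh and -0.33 in the longest.

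The developmental lists went against this trend. Of their 125 genes in the CpG-rich part of the promoters (above the median) 89 (71.2%) were higher and 7 lower, with a median of 1.87. Of the 6368 other genes in that part 414 (6.5%) were higher and 2869 (45.1%) lower, with a median of -0.94. In the CpG-poor part 61 of 96 genes of these lists (63.5%) and 1293 of 6396 other genes (20.2%) were higher, with medians of 1.44 and 0.03. The members of these lists that had a promoter in the table were fewer than 80% for most lists, so a comparison of CpG content between single lists is void for them. Olfactory and vomeronasal receptor genes, of which 85.3% and 94.7% matched, had the low median CpG content of 0.107 each, and mitochondrial ribosomal and housekeeping genes (88.1% and 81.5%) the high values of 0.81 and 0.855, beside 0.683 over all genes.

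Of the printed promoters, Mrps7, Tuba1b and Ddx4 had CpG contents at percentiles 86.8, 88.8 and 87.7 of all promoters, Hoxd3 and Olig2 at 81 and 67, and Stra8 and Olfr94 at 31.6 and 15.7. Hoxd3 and Mrps7 have similar CpG content by this ratio (0.92 and 0.969) and stand at opposite ends. By the plain count they differ, with 20 and 38 CG in the window. The log2 ratio moved with gene length too. The shortest decile of genes, with a median of 3.65 kb, had a median log2 ratio of 0.46 and 35.6% higher genes, and the longest, with 218 kb, -0.33 and 7.74%. Within genes of middle length, from 10.1 to 56.1 kb, the median still went from 0.27 to -1.06 across the deciles of CpG content.

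Marked genes lay side by side in many places. There were 46 runs of 5 or more neighbouring included genes that were all higher, with 324 genes, and 134 runs of lower genes with 836. The longest run of higher genes, 15 genes from Kcnj9 to Olfr1406 (chr1:172320508-173184504), had a median of 1.87, and 10 of its 13 genes with enough reads were higher in the E11.5 pair. The run over the HoxB cluster, with 12 genes from Ttll6 to Skap1 (chr11:96124457-96759622), had a median of 2.89 and was higher throughout at E11.5. So were the HoxD run of 9 genes from Evx2 to Hoxd1 (chr2:74652989-74765142, median 2.35) and the runs of 8 HoxA and 6 HoxC genes as far as they had reads (6 and 5 genes, medians 2.69 and 2.72).

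Several runs held no developmental regulator. In the major histocompatibility complex 11 genes from Col11a2 to H2-Ab1 (chr17:34038919-34269418), with the peptide transporters Tap1 and Tap2, Psmb8 and Psmb9, had a median of 1.99 and all 11 were higher at E11.5. A further 14 genes around Gabbr1, Zfp57 and the receptor genes Olfr90 to Olfr97 (chr17:36977701-37232368) had a median of 2.23, with 13 of 14 higher at E11.5. The Oas genes, sensors of viral RNA, formed a run of 9 with Rasal1 and Dtx1 (chr5:120648040-120873506, median 1.97, 9 of 9 at E11.5). A run of 10 defensin and Spag11 genes on chromosome 8 (median 1.41) was higher at E11.5 in 2 of the 4 genes with enough reads. A run of 6 Tmprss11 genes on chromosome 5, for skin and airway proteases (median 1.51), had 0 of 6. The longest run of lower genes, 16 from Zfp597 to Cdip1 (chr16:3861544-4790292), included Crebbp, for a histone acetyltransferase (-1.37, also chosen after its value was seen).

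Per chromosome, the medians lay between -0.79 (chromosome 12) and -0.26 (chromosome 6), and the share of higher genes between 8.96% and 19.9% on the same chromosomes.

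The E11.5 pair, H3K27me3 from females and IgG from males, shares no library with the E12.5 pair and was the nearest to an independent repeat, though stage and sex of the control differ. It had 15050 included genes, 2591 (17.2%) higher and 4466 (29.7%) lower. Over 15025 genes with enough reads in both pairs Pearson's r of the log2 ratios was 0.836 and Spearman's rho 0.774, as a description across genes. Of 2307 genes higher at E12.5, 1781 were higher at E11.5 (77.2%, or 68.9% of the 2585 higher there), and of 4460 lower genes 2638 were lower (59.1%, or 59.2% of 4459). Most lists of regulators had a greater median at E11.5, such as the non-Hox homeobox (2.74), Wnt (2.57) and Gata genes (2.50), and the vomeronasal receptor genes a smaller one (-0.34). Whether these shifts come from the stage, the controls or the depth cannot be told apart.

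**Figure D5:**
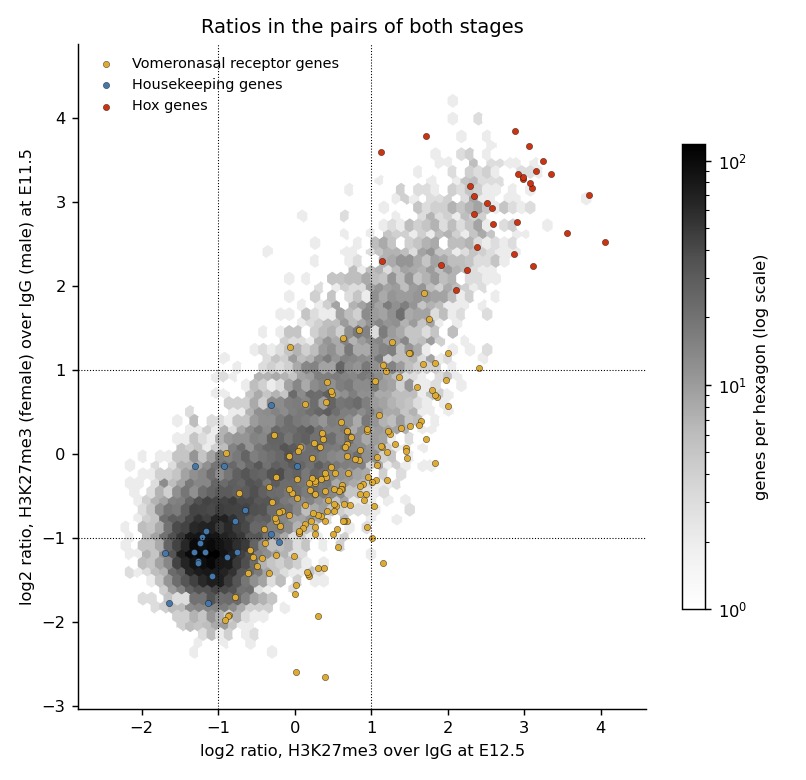
Log2 ratio of H3K27me3 to IgG of each gene in the E12.5 pair (horizontal) and in the E11.5 pair (vertical), with the number of genes per hexagon in grey (log scale) and dotted lines at -1 and 1. Hox genes (red) lie at the upper right in both pairs, housekeeping genes (blue) at the lower left, and vomeronasal receptor genes (yellow) below the run of the other genes.

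Both alleles gave similar rankings, with a Spearman's rho of 0.755 across genes. Of the 2511 higher genes 1760 (70.1%) were higher on each allele taken alone, and of the 4881 lower genes 3027 were lower on each. The calls were made on the sum of both alleles of the same libraries, so this overlap follows in part from the choice of genes and is no independent support. There were 8 genes that were called in opposite directions in the E12.5 and E11.5 pairs, 5 of them higher and 3 lower at E12.5.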

How the data were processed

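Low-input CUT&RUN, in which an antibody brings micrococcal nuclease (PA-MNase) to chromatin, was done on sorted PGCs, per the labels' protocols. The deposited files give whole-number counts of reads per gene and allele, and the authors' counts were used as they stand. The submitters' processing notes name Bowtie2 2.4.2, SAMtools 1.11, cutadapt 4.1, Trim Galore 0.6.6, FastQC 0.11.9, MultiQC 1.13, MACS2 2.2.7.1, deepTools 3.5.1, featureCounts and GATK, on mm10. How duplicates and overlapping genes were treated, and which strain is which allele, is not given in the sources used here. A deposited fraction, the authors' share of reads on the second allele, was not used. Reads without a strain variant are absent from the counts, and PCR duplicates may remain.

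The allele counts were summed, scaled to reads per 1000000 reads on chromosomes 1 to 19 (RPM) and compared as described in the report (Python 3.11.15, pandas 2.3.3, numpy 2.4.6). Exact 95% intervals of the fold came from binomial intervals of the counts (scipy 1.17.1), and the figures from matplotlib 3.10.9. The calculation was tested on simulated data. Groups follow the labels. The genes and lists were chosen with earlier results of these data known. The text names genes from among the 20 highest and 20 lowest, the 3 highest and 3 lowest of each list, all members of lists with up to 12 included genes, and the marker genes, some of which are not reported here, and says where a gene was chosen otherwise. No test between conditions was made. The alternatives were other scalings, pseudocounts, read minimums, controls, single alleles, the E11.5 pair and a thinned library. Promoters and gene coordinates came from RefSeq tables of GRCm38.p6.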

Additional observations from a re-analysis of the deposited data

Results flagged for a closer look

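In 8 genes the E12.5 and E11.5 pairs were past the threshold in opposite directions. The difference was not tested. Casp1, for the protease of inflammasomes, had a log2 ratio of 1.80 at E12.5 and -1.32 at E11.5. Tmem69 had 2.43 and -1.16, from 22 H3K27me3 reads and 0 IgG reads at E12.5. Serpinb2, a protease inhibitor, had 1.23 and -1.47, the pheromone receptor gene Vmn1r179 1.16 and -1.30, and Gabra6, for a GABA receptor subunit, 1.03 and -1.20. The opposite order was seen in Acaa1b, for a peroxisomal thiolase (-1.04 and 1.93), Mrpl23, of the mitochondrial ribosome (-1.59 and 1.02), and Bbc3, for a pro-apoptotic protein (-1.12 and 1.02). All 8 had few reads, between 22 and 69 in H3K27me3 at E12.5. With IgG at E13.5 as the control of the same H3K27me3 library none of the 8 was past the threshold, and their log2 ratios lay between -0.93 and 0.31. With male IgG at E11.5 as its control, each of the 8 had the other sign than with IgG at E12.5.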

How the results depend on the processing

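The count of higher genes (2511) lay between 1866 and 2767 under 12 of the 14 alternatives, and became 4221 when centred on the median gene and 6569 when centred on the housekeeping list. The count of lower genes (4881) became 778 and 19 under these centrings, 3000 with a pseudocount of 5 and 2806 with at least 100 reads. The median over all genes (-0.54) was 0.00 and 0.62 under the centrings, -0.43 with a pseudocount of 5, -0.47 with a minimum of 1 read, -0.39 with 100, -0.41 and -0.46 with IgG at E13.5 or male IgG as control, -0.49 in the E11.5 pair, -0.51 on each allele, and -0.59 when IgG at E13.5 decided which genes entered. Between 29 and 32 lists lay above it. The medians of 22 of the 43 lists changed sign under at least 1 setting, 13 of them (of the 14 below 0) when centred on the housekeeping list and 12 under another setting. Among lists with a median of at least 1 or at most -1 the changed values were -0.18 for forkhead genes under that last filter, 0.73 for cytoplasmic ribosomal genes with at least 100 reads, and, centred on the housekeeping list, 0.13, 0.14 and 0.09 for cytoplasmic ribosomal, mitochondrial ribosomal and proteasome genes. Among the others were vomeronasal receptor genes (0.52, and -0.34 in the E11.5 pair), spermatogenesis genes (0.47, and -0.22 under the filter on IgG at E13.5) and taste receptor genes (0.53 and -1.21 likewise). The housekeeping centring brought Acaa1b and Gbx2 to 0.13, Kit to 0.10, Eed to 0.06, Bbc3, Mlh3, Piwil2 and Wnt2b to 0.05 and Rec8 to 0.01. With male IgG as control Acaa1b stood at 0.57, Bbc3 at 0.34, Mrpl23 at 0.20, Olfr656 at -0.07, Vmn1r179 at -0.26, Gabra6 at -0.46, Serpinb2 at -0.55, Tmem69 at -0.87 and Casp1 at -1.06. With IgG at E13.5, Serpinb2 stood at -0.27, Gabra6 at -0.33, Tmem69 at -0.57 and Casp1 at -0.76, and on the second allele alone Serpinb2 at -0.36. In the E11.5 pair the 8 genes with opposite calls had 1.93 (Acaa1b), 1.02 (Bbc3 and Mrpl23), -1.16 (Tmem69), -1.20 (Gabra6), -1.30 (Vmn1r179), -1.32 (Casp1) and -1.47 (Serpinb2). Beyond the changes that centring makes by construction, the cause was not tested. The gap between the lowest and highest decile of CpG content (1.38) was 1.34 by the count of CG and 1.33 within middle gene lengths. The housekeeping centring and the filter on IgG at E13.5 were added after seeing the data. No paired analysis was possible because each group had 1 library with a file, so no replicate could be left out. The depth of the IgG library limits the ratios of thinly read genes most, since 320 higher genes had at most 3 IgG reads.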
